A study of Mus musculus with 12 samples.

Results

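Interferon-stimulated genes, the genes that cells switch on when an interferon binds its receptor, were examined in the retinal pigment epithelium (RPE) of rd6 mice. The 48 members were taken from a list of gene symbols, and a member had to average at least 10 normalized counts over the 12 libraries. All 48 passed, out of 17768 genes that passed and 28591 genes in the table. By their textbook regulation, 39 were grouped as type I members and 9 as gamma-responsive members (Irf1, Irf8, Gbp2, Gbp3, Gbp7, Igtp, Irgm1, Irgm2 and Iigp1). Many members answer to both interferons, so that the grouping is one of emphasis.

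The libraries came from 6 samples of wild-type mice (WT, C57BL/6J) and 6 samples of rd6 mice, homozygous for the rd6 allele of Mfrp (Mfrp rd6/rd6), all 1 mo old, with no treatment named. Mfrp encodes membrane frizzled-related protein, and the rd6 mutation is present in the whole animal rather than in the RPE alone. Each library holds the RNA of the RPE of both eyes of the sample, released from the eyecup after the anterior segment and the neural retina had been removed. The sexes of the mice are not separated here, and the study took both unless noted.

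Interferons are cytokines of the antiviral defense. Type I interferons bind IFNAR1 and IFNAR2 and act through a complex that holds STAT2 and IRF9 and binds the interferon-stimulated response element (ISRE) in promoters. Interferon gamma binds IFNGR1 and IFNGR2 and acts mainly through the gamma-activated site (GAS), with IRF1 as a second wave. The products range from proteins that bind or cut viral RNA to GTPases that attack the vacuoles of intracellular pathogens, and RPE cells are known to respond to both interferon types.

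Reads counted on genes ranged from 28907262 to 33152725 per library and gave no detectable difference between WT and rd6 (p = 0.963 in a two-sided exact permutation test with 6 libraries a group). Mfrp itself had 30132 to 45442 normalized counts in the WT libraries and 20442 to 29732 in the rd6 libraries (log2 fold change -0.63, limma q = 0.00126), with no overlap. The tissue label held for the most part, since the summed level of 12 RPE markers was 1440730 normalized counts or more in every library. However, 4 keratins of the ocular surface (Krt5, Krt12, Krt14 and Krt15) summed to 4.15 in the lowest WT library and to 167663 in the WT library with replicate number 4 (WT 4), and the rd6 libraries with replicate numbers 5 and 1 (rd6 5 and rd6 1) followed with 81344 and 47145. Several members were also high in these 3 libraries, and results that rest on them are given with and without them.

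Many promoters of the members hold the sequence motifs of the pathway. The letters were not used to choose members, but the members are known targets of interferon. A high share of these motifs is thus partly built into the list. RefSeq promoters of GRCm38.p6 (250 bases before to 50 after the start) were found for 37 of the 48 members. An ISRE, written as GAAANNGAAA on either strand (TTTCNNTTTC on the other), stood in 20 of the 37 (54.1%) and in 3.99% of the promoters of 27025 genes. A GAS, written as TTCNNNGAA, which reads the same on both strands, stood in 13 of the 37 (35.1%) and in 9.55% of those of all genes. Among the type I members 14 of 29 held an ISRE and 8 a GAS. Among the gamma-responsive members 6 of 8 held an ISRE and 5 a GAS. In 2 members an ISRE and a GAS overlapped.

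The following stretches of 70 bases upstream of the start show how the motifs are arranged in type I members. Every ISRE and GAS that lies wholly within a stretch is in capitals, with the bases 5′ to 3′ on the strand of the gene. They were chosen to show the IFIT cluster with its repeated promoter beside members of 4 other families.
Ifit1 (chr19:34640774-34640843, plus strand): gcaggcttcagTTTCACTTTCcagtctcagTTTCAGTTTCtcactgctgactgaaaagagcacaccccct
Ifit3 (chr19:34583377-34583446, plus strand): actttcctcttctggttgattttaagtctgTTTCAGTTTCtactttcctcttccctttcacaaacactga
Ifit3b (chr19:34607773-34607842, plus strand): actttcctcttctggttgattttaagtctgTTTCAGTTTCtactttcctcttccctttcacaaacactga
Isg15 (chr4:156200845-156200914, minus strand): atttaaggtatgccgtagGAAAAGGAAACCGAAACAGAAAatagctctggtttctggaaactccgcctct
Oas1a (chr5:120907526-120907595, minus strand): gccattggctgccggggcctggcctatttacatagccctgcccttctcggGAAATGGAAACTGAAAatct
Rsad2 (chr12:26456533-26456602, minus strand): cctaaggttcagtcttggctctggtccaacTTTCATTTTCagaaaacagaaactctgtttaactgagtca
Bst2 (chr8:71537557-71537626, minus strand): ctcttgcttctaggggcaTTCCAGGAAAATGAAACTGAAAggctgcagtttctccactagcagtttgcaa
The matches run into each other in Isg15 (3 overlapping ISREs), and a GAS runs into the ISREs of Bst2. The stretches of Ifit3 and Ifit3b are the same letter for letter, and their transcripts share 31.7% and 27.4% of their 100-base stretches. A second ISRE of each, TTTCACTTTC, begins before the stretch shown, so that its last bases (actttc) stand in lower case.

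The gamma-responsive members are shown in the same way, because in Igtp and Irgm2 a GAS stands beside an ISRE while Irf1 and Irf8 hold a GAS without an ISRE.
Gbp3 (chr3:142559974-142560043, plus strand): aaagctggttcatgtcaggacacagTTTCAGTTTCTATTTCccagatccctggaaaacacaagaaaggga
Irgm1 (chr11:48871421-48871490, minus strand): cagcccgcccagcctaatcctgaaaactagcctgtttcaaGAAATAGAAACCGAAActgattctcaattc
Igtp (chr11:58199486-58199555, plus strand): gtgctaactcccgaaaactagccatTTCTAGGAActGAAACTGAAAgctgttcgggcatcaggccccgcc
Irgm2 (chr11:58214883-58214952, plus strand): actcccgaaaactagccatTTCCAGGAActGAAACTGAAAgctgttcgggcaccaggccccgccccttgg
Irf1 (chr11:53769894-53769963, plus strand): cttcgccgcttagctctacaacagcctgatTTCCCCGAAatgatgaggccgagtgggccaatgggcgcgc
Irf8 (chr8:120736175-120736244, plus strand): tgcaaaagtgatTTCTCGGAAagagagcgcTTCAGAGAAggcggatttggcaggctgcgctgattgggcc
Igtp and Irgm2 are neighbors on chromosome 11, and Gbp3 holds 2 ISREs that run into each other.

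The motif content can be set beside the response in rd6. Of the 20 members with an ISRE 14 were called higher, with a median log2 fold change of 0.52 over the 20, and of the 17 without 6 were called higher, with a median of 0.64 (11.4% of all genes tested were called higher). The counts and the medians thus differ in direction, and neither difference was tested. Members without a promoter found, among them Mx1, Zbp1 and Iigp1, are not in this comparison. Of the 30 members called higher 20 entered it, and of the 18 not called 17 did. The transcription factors Irf8, Irf1 and Irf7 have no ISRE in the window. A match is a description of letters, and binding was not measured.

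The members covered more than 3 orders of magnitude of expression. Per kb of exon, the highest WT mean was that of Bst2 (tetherin, which holds budding virus at the cell surface) with 2499 normalized counts per kb, followed by Ifi27 with 2198 and Ifitm2 with 1588. The lowest were Mx1 with 1.91 and Oas3 with 1.63 normalized counts per kb. Ifit3, Ifitm3 and Ifit3b also had WT means of 834 normalized counts per kb or more. The WT mean of Ifitm1 was 990 per kb, but it rests on WT 4, since 5236 of its normalized counts were found there against a WT median of 226. The WT ranges of Bst2 and Ifi27 overlapped per kb, so that their order is not fixed.

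**Figure D1:**
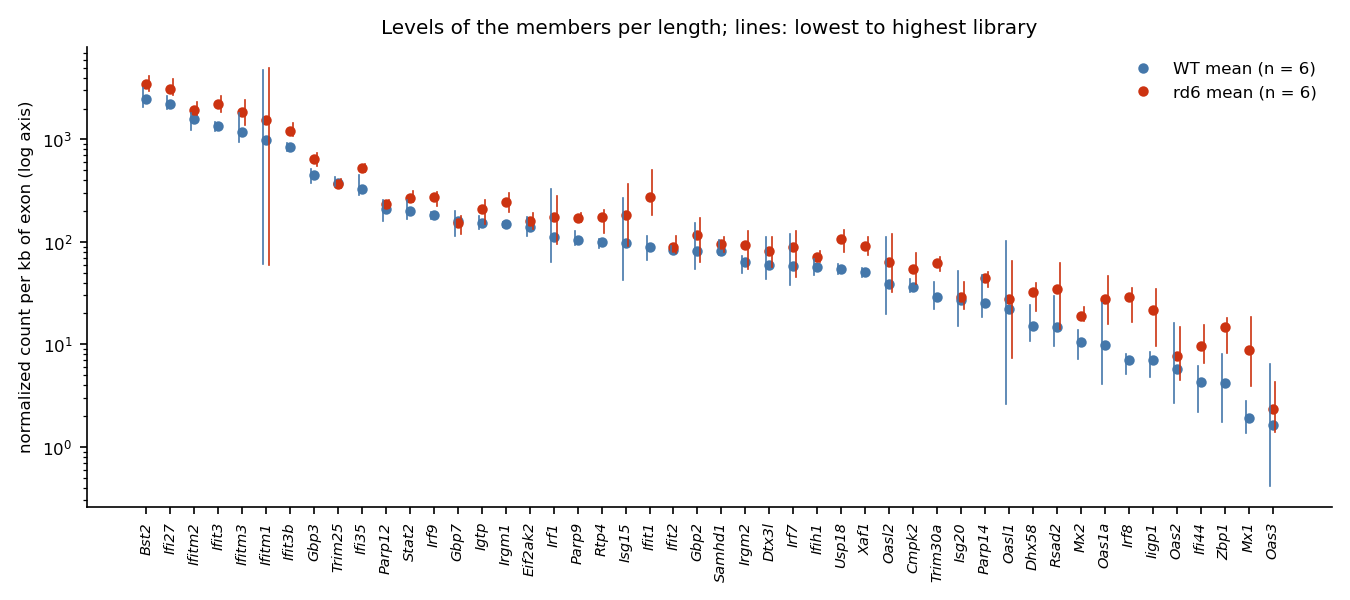
Mean level of each member per kb of exon (y axis, log scale, normalized counts per kb) in WT (blue) and rd6 (red), ordered by the WT mean, with lines from the lowest to the highest of the 6 libraries. The members run from Bst2 at 2499 to Oas3 at 1.63 in WT, and the lines of Ifitm1 and Oasl1 span the widest ranges.

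In the RPE of rd6 mice the interferon-stimulated genes were higher as a group. The list was chosen with earlier results of these data known, so that the shares below describe it and are no independent test. Of the 48 members, 30 (62.5%) rose in rd6 and 0 fell at q below 0.05, where 11.4% of all genes tested were higher and 11.6% lower. The tests are those of limma on log2(normalized count + 1) with Benjamini-Hochberg adjustment over all 17768 genes, and q stands for the adjusted p. At an unadjusted p below 0.05, 0 members were lower, and edgeR and DESeq2 on recovered reads also called 0 lower. The median log2 fold change of the members was 0.68, against 0.00 over all genes tested, and 46 of 48 lay above 0 (50.7% of all genes). With the study's fold limit added, a log2 fold change of at least 0.81, 14 members were higher, where 4.69% of all genes were. In 19 members the lowest rd6 library exceeded the highest WT library, as in 5.77% of all genes, and in 0 the highest rd6 library was under the lowest WT library (5.67%).

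Both type I and gamma-responsive members were higher in rd6 for the most part. Of the type I members 25 of 39 (64.1%) rose, with a median log2 fold change of 0.69 over the 39 and values from -0.03 (Trim25) to 1.92 (Mx1). Of the gamma-responsive members 5 of 9 (55.6%) rose, with a median of 0.53 and values from -0.05 (Gbp7) to 1.98 (Irf8). No overlap between the genotypes was found in 15 of the 39 and in 4 of the 9. Over all genes tested 11.4% were called higher and 5.77% were higher without overlap. These shares also stand beside each count by family that follows. The difference between both groups was not tested, since the members are genes and not replicates.

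**Figure D2:**
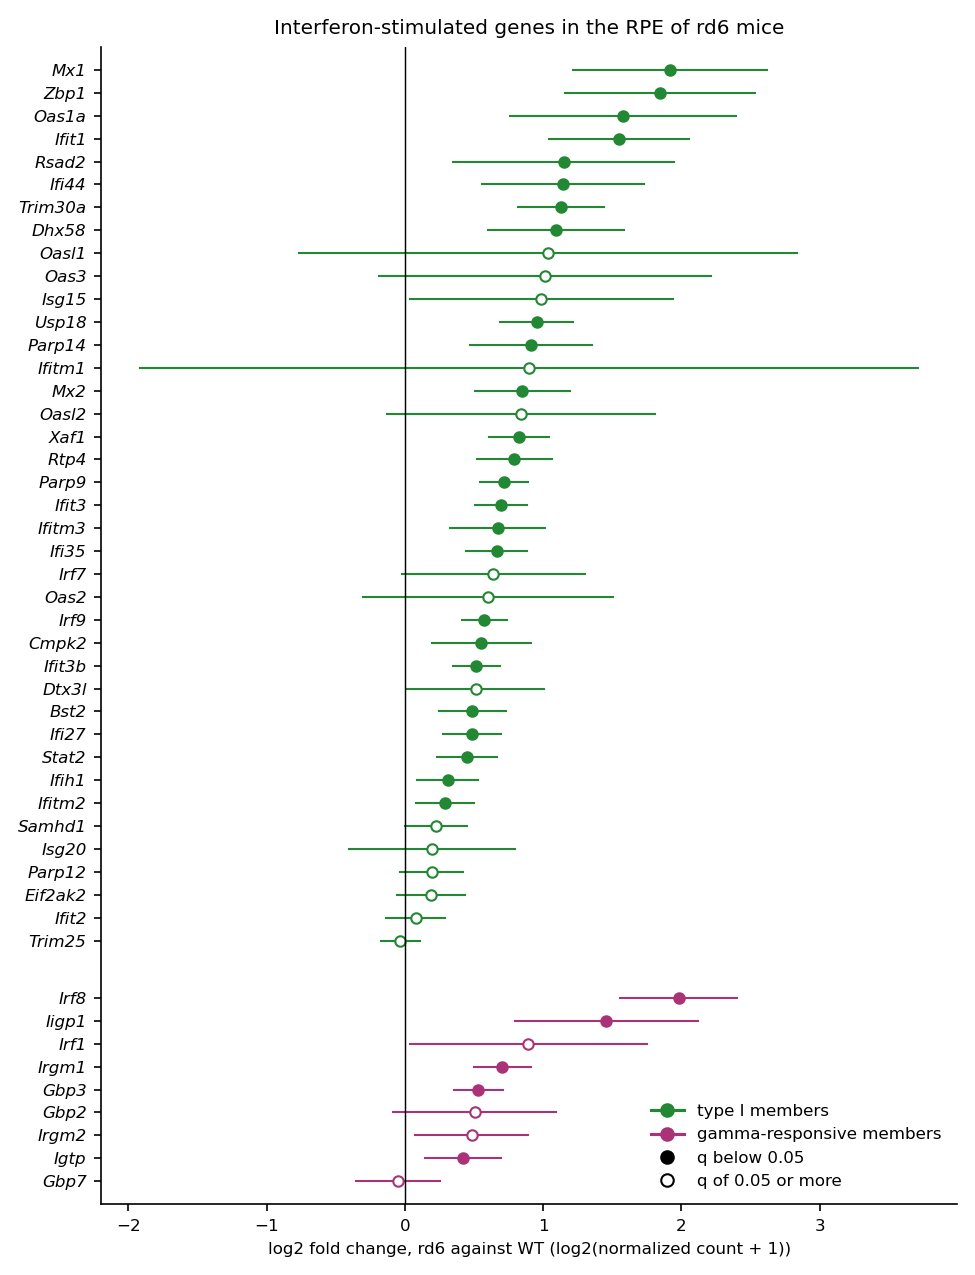
Log2 fold change of each member, rd6 against WT, on the log2(normalized count + 1) scale (x axis), with the 95% confidence interval of limma, type I members in green and gamma-responsive members in purple. Filled points have q below 0.05, and all 30 of them lie to the right of 0.

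The IFIT proteins bind foreign RNA ends and stall its translation, and 3 of 4 rose. Ifit1 ranged from 178 to 303 normalized counts in the WT libraries (median 236) and from 490 to 1332 in the rd6 libraries (median 637). The lowest rd6 library thus lay well above the highest WT library, and rd6 1 alone exceeded 1000. The log2 fold change of Ifit1 was 1.55 (SE 0.23, limma q = 0.000449). Ifit3 and Ifit3b, far more abundant, rose by 0.69 and 0.52 on the log2 scale (limma q = 0.000108 and 0.000455), both without overlap. Because these paralogs share identical stretches, the division of reads between them is uncertain. Ifit2 lies in the same cluster on chromosome 19 (GRCm38, 34550694 to 34650009 for the 4 genes, all on the plus strand), and its log2 fold change was 0.08 (95% confidence interval -0.14 to 0.29).

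Both Mx genes, of a family of GTPases known for rings around viral nucleocapsids, rose as RNA. Protein and antiviral activity were not measured. Mx1 ranged from 5.16 to 10.6 normalized counts in WT (median 6.85) and from 14.9 to 69.8 in rd6 (median 31.6). The log2 fold change was 1.92 (SE 0.32, limma q = 0.00103), at a low level where the added 1 understates the fold, and it was 1.23 at a pseudocount of 10. Its WT mean of 7.24 normalized counts was under the minimum mean of 10, so that Mx1 was tested only because of its rd6 level of 33.2. Mx2 rose by 0.85 on the log2 scale (limma q = 0.00213), and neither gene overlapped between the genotypes.

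Nucleic acid sensors followed, with 3 of 4 higher. Zbp1, which recognizes Z-form nucleic acids and starts necroptosis, ranged from 6.19 to 28.2 normalized counts in WT (median 11.99) and from 28.8 to 63.9 in rd6 (median 56.1). The groups came close without overlapping, since WT 4 was the highest WT library and rd6 3 the lowest rd6 library. Its log2 fold change was 1.84 (SE 0.32, limma q = 0.00114). Dhx58 (LGP2, a partner of the RNA sensors) ranged from 35.4 to 78.7 in WT (median 44.5) and from 69.6 to 129 in rd6 (median 117), which gave a log2 fold change of 1.09 (SE 0.23, limma q = 0.00412). Here WT 4 lay above rd6 3 and rd6 6. Ifih1 (MDA5, a sensor of long double-stranded RNA) rose by 0.31 with a limma q of 0.0424, which lay between 0.0579 and 0.0875 when any of 9 libraries was left out singly (all but WT 1, WT 4 and rd6 3). Eif2ak2 (PKR, the kinase that stops translation on double-stranded RNA) had a log2 fold change of 0.19 and did not pass the test (limma q = 0.261).

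The OAS family, whose members make the second messenger that activates RNase L or resemble those enzymes, depended on WT 4. Oas1a ranged from 7.75 to 47.6 normalized counts in WT (median 14.6) and from 29.8 to 88.2 in rd6 (median 49.3). The highest WT value belongs to WT 4 and the next to 16.5, so that the other 5 WT libraries lay below all rd6 libraries. Its log2 fold change was 1.58 (SE 0.38, limma q = 0.00934), with the limit that 40.9% of its 100-base stretches are shared with Oas1g. Oas2, Oas3, Oasl1 and Oasl2 had log2 fold changes from 0.60 to 1.03 and did not pass the test (limma q from 0.201 to 0.405). In all 5 genes WT 4 was the highest WT library. Without WT 4, Oas2 (limma q = 0.0345), Oas3 (0.00791) and Oasl2 (0.0176) passed, while Oasl1 (0.0561) did not. Without WT 4, rd6 1 and rd6 5, Oas3 (limma q = 0.0306) and Oasl2 (0.026) passed, while Oas2 (0.0969) and Oasl1 (0.187) did not. With the log2 keratin level as a covariate none of the 4 passed (limma q from 0.296 to 0.701), and Oas1a stayed higher in all 3 fits.

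The ISG15 system attaches a ubiquitin-like tag to proteins. Usp18, which removes the tag and also blocks IFNAR2, ranged from 135 to 169 normalized counts in WT (median 154) and from 223 to 364 in rd6 (median 318). The spread within WT was small beside the gap, and the log2 fold change was 0.95 (SE 0.12, limma q = 0.000121). Isg15 itself ranged from 32.1 to 204 in WT and from 69.6 to 279 in rd6, and at a log2 fold change of 0.99 it did not pass (limma q = 0.127). Its limma q was 0.0122 without WT 4, 0.0213 without the 3 keratin-rich libraries and 0.192 with the keratin level as a covariate. Trim25, a ligase of the same system, was the most abundant member that was not called, from 2007 to 2485 in WT (median 2132) and from 1934 to 2384 in rd6 (median 2092). Its log2 fold change was -0.03 (95% confidence interval -0.18 to 0.11), and its sign turned under upper-quartile rescaling and without WT 4.

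Enzymes that act on nucleotides or nucleic acids were mixed. Rsad2 (viperin, which makes a chain-terminating nucleotide) ranged from 42.1 to 127 normalized counts in WT (median 53.8) and from 61.6 to 271 in rd6 (median 141). The groups overlapped, because WT 1 lay above rd6 5 and rd6 6, and the next WT library (63.8) lay above the lowest rd6 value. Its log2 fold change was 1.15 (SE 0.37) and its limma q of 0.0403 was close to the threshold. It was not called when any of 9 libraries was left out singly, namely WT 2 to WT 6 and rd6 1 to rd6 4 (limma q from 0.0578 to 0.0877). Cmpk2, its neighbor on chromosome 12 and the supplier of its nucleotide, rose by 0.55 (limma q = 0.0288, and between 0.0524 and 0.0584 without WT 5, WT 6, rd6 1, rd6 2, rd6 3 or rd6 4). Samhd1, which degrades deoxynucleotides, and Isg20, an exonuclease, had log2 fold changes of 0.22 and 0.20 and were not called, although Samhd1 passed without WT 4 (limma q = 0.0289). It did not pass without the 3 keratin-rich libraries (limma q = 0.0793) or with the keratin covariate (0.181).

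All 6 members without a shared enzymatic role rose, each without overlap, where 11.4% of all genes tested were called higher and 5.77% were higher without overlap. Ifi44 ranged from 13.4 to 37.9 normalized counts in WT (median 26.5) and from 40.0 to 94.0 in rd6 (median 56.2), a log2 fold change of 1.14 (SE 0.27, limma q = 0.00895). Trim30a, a mouse TRIM protein that dampens signaling, ranged from 91.8 to 165 in WT (median 114) and from 214 to 293 in rd6 (median 270), a log2 fold change of 1.13 (SE 0.14, limma q = 0.000123). In both genes all 6 rd6 libraries lay above the highest WT library. Xaf1, which favors cell death (0.83), Rtp4 (0.79), Ifi35 (0.67) and Ifi27 (0.49) followed on the log2 scale, with limma q of 0.0032 or less. For Rtp4, 9.28% of its 100-base stretches are shared with Gm45338, which overlaps it.

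The membrane restriction factors, which stop virus entry or release, rose in 3 of 4 cases by modest amounts. Ifitm3 rose by 0.67 (limma q = 0.00887), Bst2 by 0.49 (0.00731) and Ifitm2 by 0.29 (0.0489) on the log2 scale. The call of Ifitm2 was lost when any of 8 libraries was left out singly (limma q from 0.0548 to 0.106), all but WT 4, WT 5, rd6 4 and rd6 5. Ifitm2 shares 34.9% of its 100-base stretches, mostly with the overlapping Gm45717. Ifitm1 ranged from 66.4 to 5236 normalized counts in WT (median 226) and from 64.9 to 5447 in rd6 (median 669), the widest spread of any member. The high values belong to WT 4, rd6 5 and rd6 1, the 3 libraries highest in keratins. Its log2 fold change of 0.90 had a 95% confidence interval from -1.91 to 3.71 (limma q = 0.657). It was 0.27 without these 3 libraries (limma q = 0.854), 1.73 without WT 4 alone (0.287) and 0.24 without rd6 5 alone (0.919).

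Of the PARP enzymes and DTX3L, which modify proteins with ADP-ribose and ubiquitin, 2 of 4 rose. Parp9 rose by 0.72 (limma q = 4.02e-05) without overlap, and Parp14 by 0.91 (limma q = 0.00642). Dtx3l, the partner of PARP9, had a log2 fold change of 0.51 (limma q = 0.127). Its limma q was 0.00507 without WT 4, 0.0112 without the 3 keratin-rich libraries and 0.129 with the keratin covariate. It overlaps Parp9 on the opposite strand of chromosome 16, so that reads in the shared part cannot be told apart if the counting did not use the strand, as is the default of the counting tool. Parp12 ranged from 639 to 1020 normalized counts in WT (median 845) and from 863 to 1013 in rd6 (median 935), with a log2 fold change of 0.19 (limma q = 0.209).

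**Figure D3:**
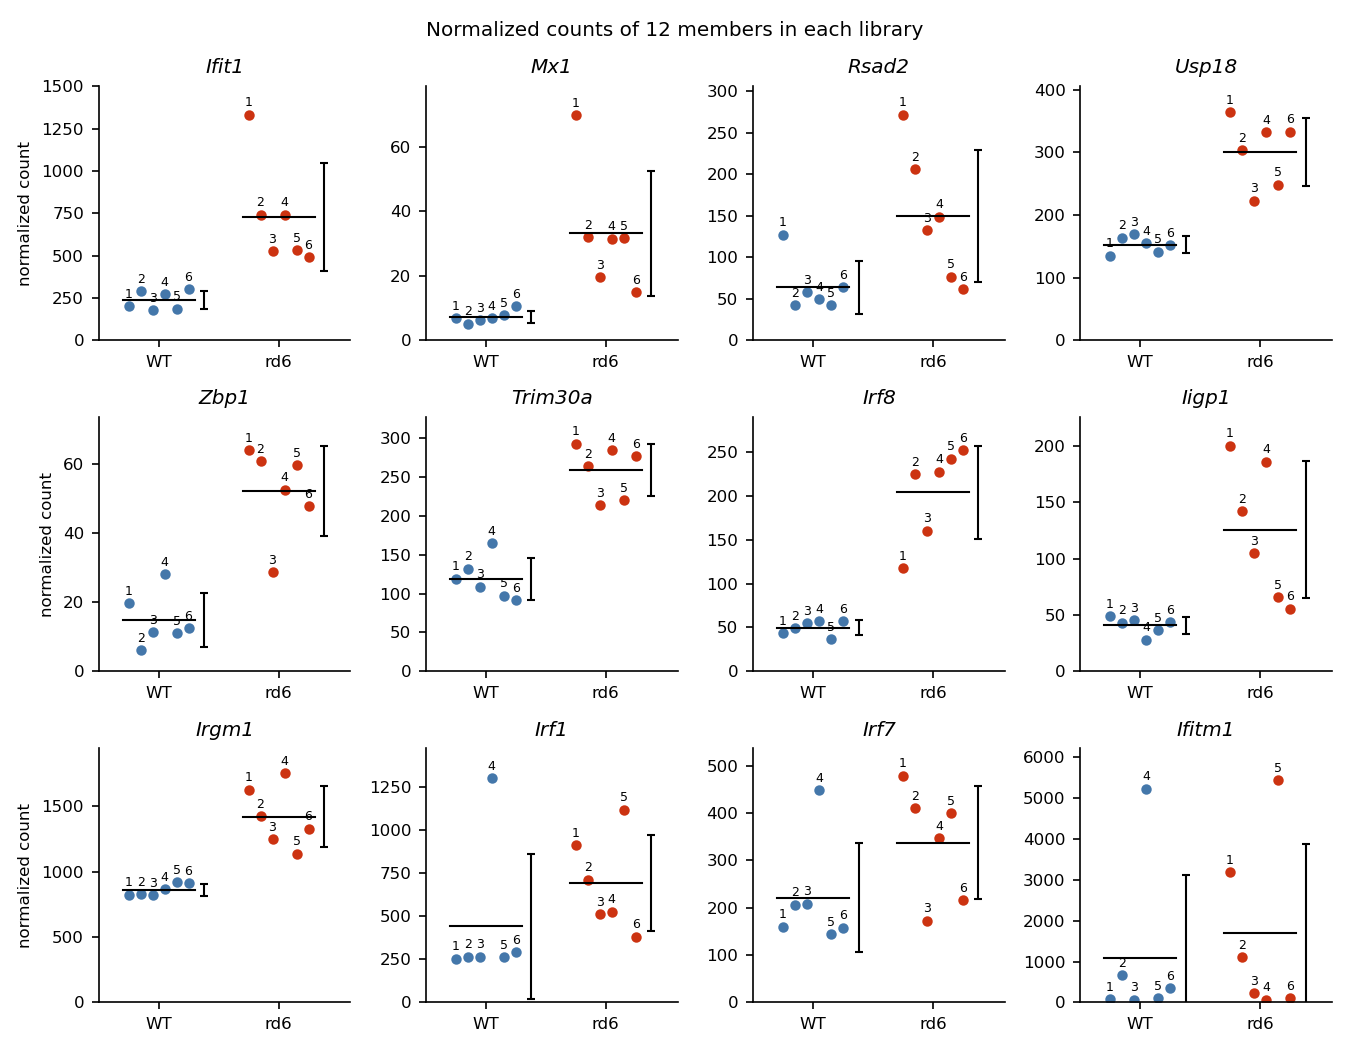
Normalized counts (y axes, linear, from 0) of 12 members in each of the 6 WT (blue) and 6 rd6 (red) libraries, numbered by replicate, with the group mean (line) and SD (bar beside it, ending at 0 where it would run below). Ifit1, Mx1, Usp18, Zbp1, Trim30a, Irf8, Iigp1 and Irgm1 are separated, and WT 4 lies with the rd6 libraries in Irf1, Irf7 and Ifitm1.

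The transcription factors of the pathway divided into 3 that rose and 2 that did not pass. Irf8 ranged from 36.5 to 57.3 normalized counts in WT (median 52.3) and from 117 to 251 in rd6 (median 226). Its log2 fold change of 1.98 (SE 0.20, limma q = 1.4e-05) was the largest of the 48 in this fit, while Mx1 exceeded it in DESeq2 (2.20 against 2.03), in edgeR, at a pseudocount of 0.1 and without WT 5 or rd6 6, and Zbp1 without WT 1 or WT 4. Even rd6 1, the lowest rd6 library, lay above all WT libraries. Irf8 answers to interferon gamma, but it is also a lineage factor of microglia and other myeloid cells. Without Irf8, 29 of 47 members rose and the median log2 fold change was 0.67.

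Irf9 and Stat2 encode parts of the type I complex. Irf9 ranged from 899 to 1060 normalized counts in WT (median 986) and from 1213 to 1638 in rd6 (median 1511), a log2 fold change of 0.58 (SE 0.07, limma q = 0.00013). Stat2 ranged from 991 to 1523 in WT (median 1115) and from 1440 to 1853 in rd6 (median 1530), a log2 fold change of 0.45 (SE 0.10, limma q = 0.00662). For Stat2, WT 1 was the only WT library within the rd6 range.

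Irf1 and Irf7, which carry the second wave of the response, depended on WT 4. Irf1 ranged from 254 to 1304 normalized counts in WT (median 266) and from 383 to 1121 in rd6 (median 620). The value of 1304 belongs to WT 4 and exceeded every rd6 library, while the next WT library had 292 and lay below all rd6 libraries. Irf7 ranged from 144 to 449 in WT (median 183) and from 173 to 479 in rd6 (median 373). With all libraries the log2 fold changes were 0.89 (SE 0.40, limma q = 0.126) and 0.64 (SE 0.31, limma q = 0.154). Without WT 4 they were 1.27 (limma q = 0.00159) and 0.87 (limma q = 0.022). Without the 3 keratin-rich libraries Irf1 was at 0.96 (limma q = 0.00102) and Irf7 at 0.64 (limma q = 0.0834). With the keratin covariate they were at 0.58 (limma q = 0.158) and 0.45 (limma q = 0.25), so that neither passed.

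The immunity-related GTPases coat the vacuoles of intracellular pathogens, and 3 of 4 rose. Iigp1, an effector, ranged from 28.2 to 49.3 normalized counts in WT (median 43.4) and from 55.7 to 201 in rd6 (median 124), a log2 fold change of 1.46 (SE 0.31, limma q = 0.00444). Its lowest WT library was WT 4. Irgm1, a regulator of the effectors, ranged from 818 to 917 in WT (median 846) and from 1137 to 1753 in rd6 (median 1375), a log2 fold change of 0.71 (SE 0.09, limma q = 0.000179). The WT libraries of Irgm1 lay within a narrow band that no rd6 library entered.

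Igtp and Irgm2 lie on the plus strand of chromosome 11 and overlap, from 58199556 to 58207591 and from 58199618 to 58222782 (GRCm38). Igtp ranged from 267 to 365 normalized counts in WT (median 311) and from 303 to 522 in rd6 (median 418), a log2 fold change of 0.42 (SE 0.13, limma q = 0.0301). Its q lay between 0.0535 and 0.0675 without WT 1, WT 2, rd6 1, rd6 3, rd6 4 or rd6 6. Irgm2 had a log2 fold change of 0.48 and did not pass (limma q = 0.0833). In both genes rd6 5 was the lowest rd6 library and lay within the WT range, and without it Irgm2 passed (limma q = 0.0134).

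Of the guanylate-binding proteins, which act on the same vacuoles, 1 of 3 rose. Gbp3 ranged from 1238 to 1665 normalized counts in WT (median 1475) and from 1784 to 2397 in rd6 (median 2154), a log2 fold change of 0.53 (SE 0.08, limma q = 0.000544), without overlap. Gbp2 had a log2 fold change of 0.51 (limma q = 0.207). Its limma q was 0.0401 without WT 4, 0.121 without the 3 keratin-rich libraries and 0.329 with the keratin covariate. Gbp7 had -0.05 (95% confidence interval -0.35 to 0.25), and 10.01% of its 100-base stretches are shared, mostly with Gm43802. The 3 genes lie side by side on the plus strand of chromosome 3 between 142530342 and 142638008 (GRCm38).

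Some members were high in the libraries rich in keratins. In 14 members WT 4 exceeded the median of the other WT libraries by at least 0.81 on the log2 scale, as in 10.6% of all genes tested, and this split was made after the values were seen. They are the 5 OAS genes, Ifitm1, Irf1, Irf7, Isg15, Zbp1, Dhx58, Dtx3l, Parp14 and Gbp2. On the log2 scale, against the mean of the other 5 WT libraries, these 14 averaged 2.13 in WT 4, 2.12 in rd6 1, 2.02 in rd6 5 and 1.5 in rd6 2, the 4 libraries highest in keratins. In rd6 3, rd6 4 and rd6 6 they averaged 0.68, 0.90 and 0.63. The order did not follow the keratins throughout, since WT 2 (9814) averaged 0.24 where rd6 2 (13294) averaged 1.5, and rd6 4 (440) exceeded rd6 3 (2694). The other 34 members averaged 0.06 in WT 4 and 0.92, 0.76, 0.56, 0.84, 0.49 and 0.56 in rd6 1 to rd6 6.

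The averages in WT 4 were set by the cut itself, and a high WT library also lowers the fold change and widens the WT spread. Of the 14 members, Oas1a, Dhx58, Parp14 and Zbp1 were nevertheless called higher. The part of the ocular surface tissue in these values was not tested beyond the fits that follow.

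**Figure D4:**
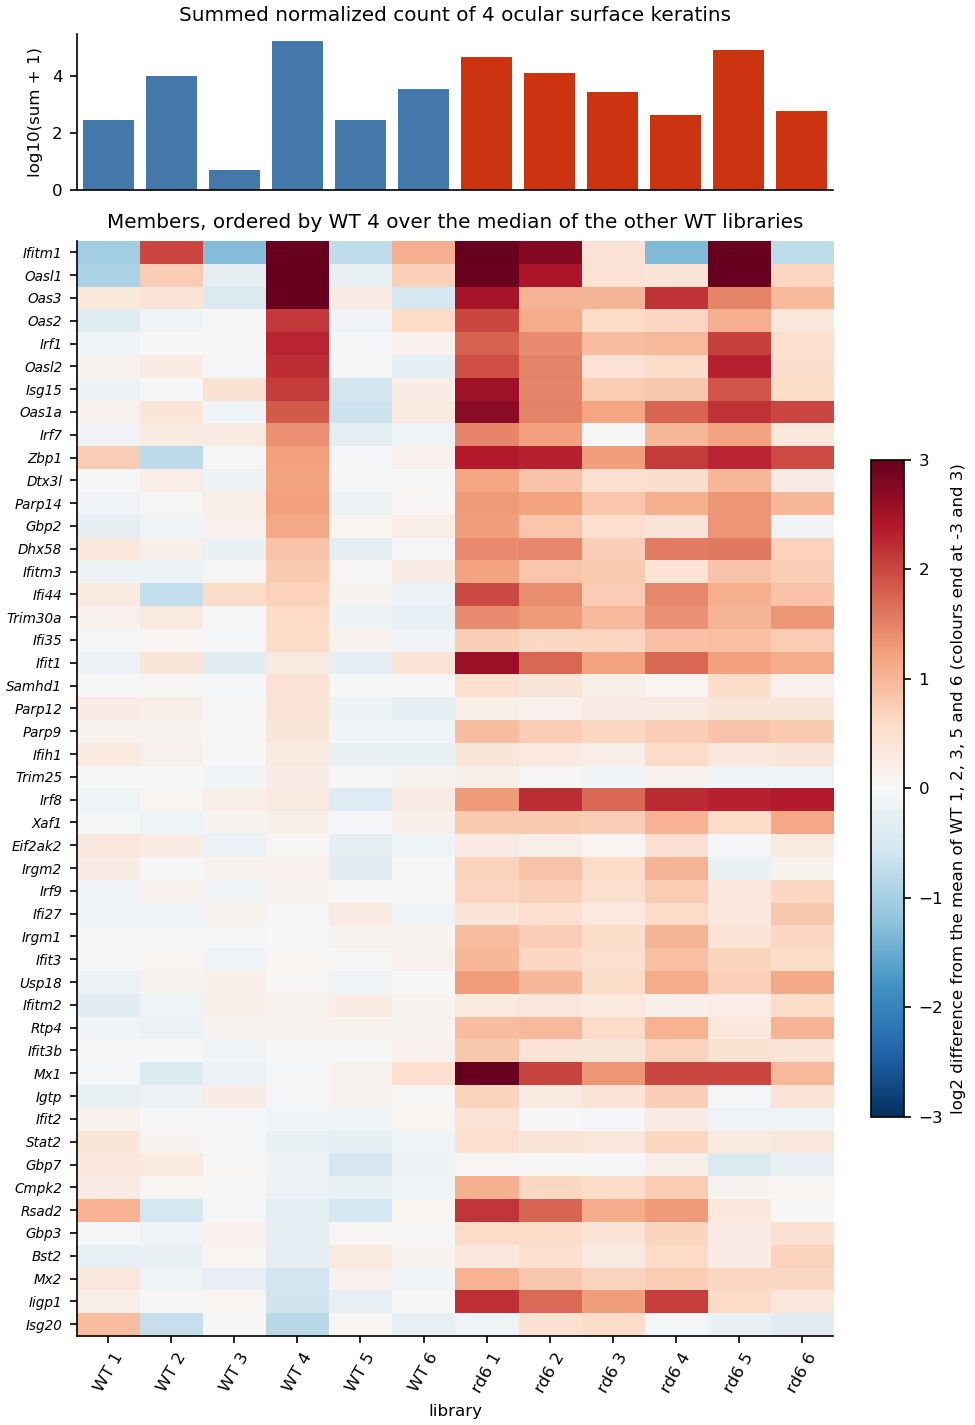
Top, log10 of the summed normalized count of 4 ocular surface keratins plus 1 in each library. Bottom, log2 difference of each member (rows, ordered by WT 4 over the median of the other WT libraries) from the mean of WT 1, 2, 3, 5 and 6, with colors ending at a size of 3 in both directions. The upper rows are red in WT 4, rd6 1, rd6 2 and rd6 5, and most lower rows are red in all rd6 libraries and near 0 in WT 4.

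The group as a whole was higher in rd6 under each of 3 fits that took the keratins into account, all chosen with the keratin values known apart from the one that leaves out WT 4. Without WT 4, 38 members were higher (29 of the 30 and 9 more), where 13.7% of all genes were. Without WT 4, rd6 1 and rd6 5, 33 were higher (27 of the 30 and 6 more), where 10.8% of all genes were. With the log2 keratin level as a covariate, 27 of the 30 stayed higher and no other member was added, where 11.2% of all genes were higher. Ifih1, Ifitm2 and Rsad2 were lost in both of the latter. Ifitm1 went from 0.90 to -0.36 on the log2 scale with the covariate (limma q = 0.69). The median log2 fold change of the members was 0.77, 0.68 and 0.57 in the 3 fits.

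**Figure D5:**
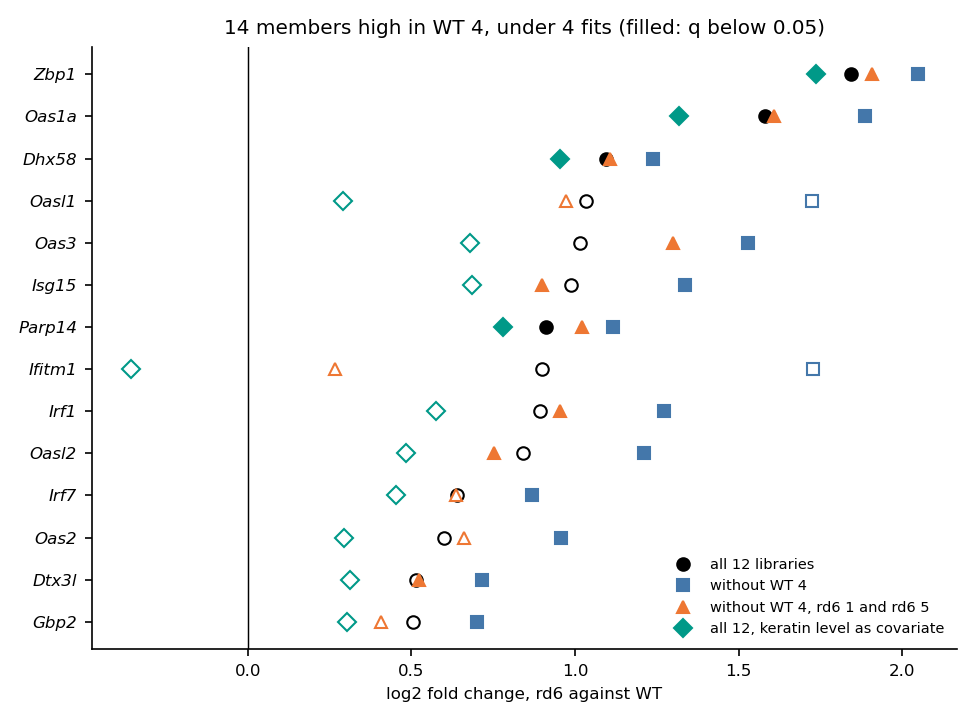
Log2 fold change, rd6 against WT (x axis), of the 14 members high in WT 4 under 4 limma fits, with filled symbols for q below 0.05. Without WT 4 every value moves to the right of the fit on all 12 libraries, and with the keratin level as a covariate every value moves to the left, below 0 for Ifitm1.

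Microglia and macrophage markers moved in the same direction as the members. Of 18 such markers 17 rose, where 11.4% of all genes tested were called higher, with a median log2 fold change of 2.78. Apart from Csf1r, which was abundant in both genotypes, the other 17 summed to between 2727 and 4395 normalized counts in the WT libraries and between 12115 and 26472 in the rd6 libraries. In bulk tissue, more cells of a type and more RNA per cell cannot be told apart, and the same holds for the members. The lowest marker sum among the rd6 libraries was that of rd6 1, in which the 48 members had their highest average (1.27 on the log2 scale against the other 5 WT libraries). The highest was that of rd6 4, in which the members averaged 0.86. However, rd6 1 is also rich in keratins, and the 14 members high in WT 4 averaged 2.12 there and 0.90 in rd6 4. The other 34 members averaged 0.92 in rd6 1 and 0.84 in rd6 4, and the gamma-responsive members 1.04 and 1.03. The part of these cells in the members' levels was not tested further.

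Markers of other cell types were followed in the same way. Of 8 endothelial markers 6 rose, and their sum ranged from 5418 to 10252 in WT and from 8864 to 20497 in rd6. T and NK cell markers, 14 in number, summed to 45.4 to 86.4 in WT (median 58.6) and to 49.7 to 132 in rd6 (median 78.9). Cd4 and Lck, the only ones tested, averaged 10 or more, with log2 fold changes of -0.80 and 0.27, and did not pass (limma q = 0.178 and 0.49). Of the defining markers, Cd3e, Cd3d and Ncr1 stayed at 5.73 or less normalized counts in every library, Cd3g reached 12.4 and Gzma 24.7. These cells are the usual source of interferon gamma, and their part in the members' levels was not tested. At these levels 1 read is worth between 0.903 and 1.11 normalized counts. B cell markers (4) summed to 7.75 to 27.1 in WT and to 11.6 to 73.2 in rd6. Those of monocytes, dendritic cells and neutrophils (9) summed to 36.5 to 153 in WT (median 50.7, with the highest in WT 4) and to 98.4 to 208 in rd6 (median 157). Of the 4 of them that were tested 1 rose, and all 4 lay above 0 (median log2 fold change 1.47), so that these sums moved with the members, and their part in the members' levels was not tested. Rod markers fell in 4 of 11 cases, RPE markers rose in 1 and fell in 4 of 12, and of 8 markers of choroidal stroma 1 fell. The single calls in these lists are close to the 11.4% of all genes called higher and the 11.6% called lower.

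The rd6 libraries also differed among themselves. In 22 of the 48 members rd6 1 was the highest rd6 library (16.0% of all genes), in 10 each it was rd6 4 (20.4%) and rd6 5 (22.7%), and in 0 it was rd6 2 (9.96%). The lowest was rd6 6 in 15 members (15.2% of all genes), rd6 3 in 13 (11.7%) and rd6 5 in 12 (28.2%). Among the members most raised, Mx1 was highest in rd6 1 and lowest in rd6 6, while Irf8 was highest in rd6 6 and lowest in rd6 1.

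Upstream of the members, a single ligand gene could be examined. Of 12 ligand genes listed, Ifng was analysed, with 1 read in WT 3 and 1 read in rd6 6 and none in the other 10 libraries. At this depth 3 reads, worth 2.71 to 3.32 normalized counts, are the limit that a count of 0 allows, and counting error is all that this covers. The other 11 ligands were not analysed here.

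Of the 23 other genes of the pathway, 8 (34.8%) rose and 0 fell (11.4% and 11.6% of all genes). At an unadjusted p below 0.05, Irf3 and Tyk2 were lower, and edgeR and DESeq2 called 0 lower. Without WT 4, 12 rose, with Ifngr1, Ifnlr1, Jak1 and Sting1 added, none of which passed with the keratin covariate (limma q from 0.121 to 0.275), and without WT 5 Tyk2 was lower (limma q = 0.0442). The receptors rose in 3 of 6 cases. Ifnar2 ranged from 588 to 716 normalized counts in WT (median 653) and from 809 to 1210 in rd6 (median 904), a log2 fold change of 0.50 (SE 0.09, limma q = 0.00181). Ifngr2 had 0.53 (limma q = 0.00654) and Il10rb, shared by interferon lambda and interleukin 10, 0.49 (limma q = 0.0122). Ifnar1 had 0.10 (95% confidence interval -0.02 to 0.23) and Ifngr1 0.21 (-0.02 to 0.44), and neither passed. Ifngr1 passed without WT 4 (limma q = 0.00756) and without the 3 keratin-rich libraries (0.0297) but not with the keratin covariate (0.275), and Ifnar1 passed without rd6 5 (limma q = 0.0251).

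In the sensing branch 1 of 8 genes rose, Irf5, an activator of inflammatory genes in myeloid cells, by 1.07 (limma q = 0.0206), and such a count is close to the 11.4% of all genes. Ddx58 (RIG-I, an RNA sensor like MDA5) and Mavs and Tbk1, the steps that both sensors share, had log2 fold changes from 0.01 to 0.02 and were not called.

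Negative regulators rose in 3 of 5 cases. Socs3, an inhibitor of JAK kinases, ranged from 47.5 to 159 normalized counts in WT (median 69.3) and from 266 to 369 in rd6 (median 346), a log2 fold change of 2.01 (SE 0.26, limma q = 0.000137). Socs1, the classical inhibitor of interferon signaling, had 0.57 and did not pass (limma q = 0.14). The phosphatases Ptpn2 and Ptpn6 rose by 0.46 and 0.40 (limma q = 0.000564 and 0.00222), without overlap, and Ptpn6 is known from leukocytes.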

How the data were processed

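RPE RNA of 6 WT and 6 rd6 samples was sequenced by the authors (TruSeq Stranded Total RNA, paired-end, NextSeq 500). Reads were aligned to mm10 and counted with Rsubread at its standard settings, of which the default is to count without strand (version not given in the sources used here), and the processing notes name bcl2fastq, FastQC and DESeq2. The deposited signal of a gene in a library is its read count divided by a DESeq2 size factor. Beside it the authors deposited their own comparison (a mean signal, log2 fold changes with errors, a Wald score and p-values), which was not used. All per-sample columns were mapped to samples by name.

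Of 28596 rows, 5 repeats of 4 identifiers were dropped. Every value was a whole multiple of the worth of 1 read, so that reads were recovered. They came to 28907262 to 33152725 per library, and 3 reads are worth 2.71 to 3.32 normalized counts. No library pair differed by as little as sampling noise (smallest chi-square per gene 8.86 over 66 pairs). The labels name separate samples but no separate animals, so that p-values measure the spread between these samples.

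The test was limma 3.58.1 (R 4.3.3, trended empirical Bayes) on log2(value + 1) with genotype alone. It was fitted to the 17768 genes averaging 10 or more, with Benjamini-Hochberg adjustment. The fit was also run on simulated reads, and its outcome there is not given. A gene that does not pass is not shown to be unchanged. Alternatives on recovered reads used edgeR 4.0.16 and DESeq2 1.42.0, and pseudocounts of 0.1 and 10, other filters, TMM and upper-quartile rescaling, the replicate number as a block and leaving out each library were tried. The keratin covariate and the fit without 3 libraries were chosen after seeing the data. Members, lists and marker genes were chosen with earlier results of these data known. Any member could be named. Library values were given for the 9 type I and 5 gamma-responsive members most changed, for the 3 most abundant that were not called and for all transcription factors, and the called pathway genes were named, apart from an item that is not reported here. Positions are from GENCODE M21 (GRCm38) and promoters from RefSeq (GRCm38.p6). Promoters were not shown for Ifi27, Mx1, Mx2, Oas2, Usp18, Rtp4, Dhx58, Parp9, Parp14, Zbp1 and Iigp1. In place of a planned comparison of protein sequences, the share of 100-base stretches that transcripts have in common with those of other genes was computed.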

Additional observations from a re-analysis of the deposited data

Results flagged for a closer look

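Over the members and the pathway genes named, 116 groups of 6 libraries were examined for a lone library whose gap to its nearest neighbor, divided by the range of the group, passed Dixon's 95% limit for 6 values. Chance flags about 1 in 20 groups, and 16 were found. In 12 of the 16 the library was WT 4, the one highest in ocular surface keratins, and each time it was the high one. Its normalized counts there were 1304 for Irf1, 1130 for Ifngr1, 974 for Ifngr2, 946 for Samhd1, 773 for Ifi35, 716 for Oasl2, 642 for Dtx3l, 449 for Irf7, 445 for Parp14, 384 for Gbp2, 268 for Oasl1 and 45.6 for Oas3. Since the genes come from 1 library, these 12 are not independent of each other.

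The other 4 belonged to different libraries. Rsad2 was high in WT 1 (127 normalized counts, the next WT library having 63.8). Zbp1 was low in rd6 3 (28.8, the next having 47.7). Ifnar2 was high in rd6 6 (1210, the next having 930.0), and Ptpn2 was low in WT 6 (417, the next having 465). With the exception of Rsad2, each of these genes was higher in rd6 in every comparison of a WT with an rd6 library.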

How the results depend on the processing

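The number of members higher in rd6 stayed between 25 and 38 of 48 when each library was left out in turn, with 0 lower. The type I count lay between 21 and 31, the gamma-responsive count between 4 and 7 and the pathway count between 8 and 12. The median log2 fold change of the members lay between 0.61 and 0.77. edgeR called 28 members higher and DESeq2 31, and no filter gave 28. With at least 10 normalized counts in every library 27 were higher, but Mx1, Oas1a and Zbp1 could not be tested there, since a member can be lost to that filter through its low WT libraries. Pathway genes lower numbered between 0 and 1 with each library left out. The cause of these changes was not tested.

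The log2 fold change of Trim25 (-0.03) was 0.00512 under upper-quartile rescaling, which moved the median of all genes by 0.04, and lay between -0.0665 and 0.00487 over the fits without 1 library, the latter without WT 4. That of Ifitm1 was -0.36 with the keratin covariate. Same-numbered WT and rd6 libraries did not deviate together (mean correlation -0.25, and 0 of 12 libraries matched their own number best). With the replicate number as a block, 28 members were higher (23 type I and 5 gamma-responsive) and 7 pathway genes, with Irf5 no longer called (limma q = 0.0582). Members at a few normalized counts per library, such as Oas3 and Mx1, are limited by depth, as 3 reads are worth up to 3.32.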
